A study of Mus musculus with 32 samples.

Results

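Neutrophils carry their antimicrobial proteins in granules that are filled one after another as the cell matures. The 10 genes described here encode granule or abundant cytosolic proteins of neutrophils and were taken as a list by symbol, each read from the single probe set that the platform annotation gives it, out of 18193 genes with a probe set of 1 symbol. The 4 early genes, Mpo, Elane, Ctsg and Prtn3, encode proteins of the primary granules, and the 6 later genes are Ltf, Camp, Ngp, Lcn2, S100a8 and S100a9. The level of each gene was read in lung of mice that lack glutathione reductase (Gsr-KO) or have it (Gsr-WT), and the early genes were compared with the later ones.

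Both genotypes were of the C3H/HeN strain. Gsr-KO and Gsr-WT lungs were taken at embryonic day 19 (E19, 4 arrays per genotype, no exposure) and, with 3 arrays per group, on postnatal day 5 (P5) or 56 (P56) from mice kept with their dams in room air, or in 100% oxygen (hyperoxia), between birth (day 0) and day 5. This makes 32 arrays in 10 groups, 1 mouse per array, and RNA came from a portion of the lung rather than from sorted cells. The labels give the deletion as a genotype of the mouse and name no cell type or promoter that restricts it. Sex and litter are not among the labels, and p-values measure the spread between these animals.

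The granule proteins mark successive steps of granulocyte development. Primary granule genes are transcribed in promyelocytes, in bone marrow and, before birth, in fetal liver, and they are switched off before a neutrophil enters the blood. Secondary and tertiary granule genes follow in myelocytes and later cells, and S100a8 and S100a9 stay abundant in the mature neutrophil. In RNA from a piece of tissue, fewer cells of a type and less RNA per cell cannot be told apart.

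The promoters of the 4 early genes and of 2 later genes are printed here. The 2 classes shared part of their pattern over the groups and differed in part, and the letters show what the start regions share. All 10 members matched a RefSeq promoter on GRCm38.p6, from 250 bases before to 50 bases after the gene's start. Capitals mark GAGGAAG, a motif of PU.1 and other ETS factors, AACGG, a core motif of MYB, and TTNNGNAA, a C/EBP motif, each searched on both strands, so that a motif on the other strand stands as its reverse complement. No capital run overlaps another motif.
Mpo, chr11:87793534-87793833, plus strand: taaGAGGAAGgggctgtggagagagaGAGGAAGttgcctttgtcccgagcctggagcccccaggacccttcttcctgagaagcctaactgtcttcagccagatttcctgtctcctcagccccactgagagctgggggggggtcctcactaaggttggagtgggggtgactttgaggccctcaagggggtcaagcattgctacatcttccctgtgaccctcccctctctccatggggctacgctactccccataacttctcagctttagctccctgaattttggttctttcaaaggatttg
Elane, chr10:79886062-79886361, plus strand: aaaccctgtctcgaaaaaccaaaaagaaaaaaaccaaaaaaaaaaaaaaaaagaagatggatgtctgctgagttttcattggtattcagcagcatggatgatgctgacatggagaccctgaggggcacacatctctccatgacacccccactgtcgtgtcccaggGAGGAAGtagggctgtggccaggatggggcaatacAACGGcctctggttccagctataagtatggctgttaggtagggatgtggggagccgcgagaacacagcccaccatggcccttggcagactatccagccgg
Prtn3, chr10:79879417-79879716, plus strand: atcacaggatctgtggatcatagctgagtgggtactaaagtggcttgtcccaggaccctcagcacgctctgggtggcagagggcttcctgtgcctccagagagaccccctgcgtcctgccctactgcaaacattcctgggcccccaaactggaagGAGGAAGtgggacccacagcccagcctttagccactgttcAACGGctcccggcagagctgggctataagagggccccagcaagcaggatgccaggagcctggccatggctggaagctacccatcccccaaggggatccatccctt
Ctsg, chr14:56102525-56102824, minus strand: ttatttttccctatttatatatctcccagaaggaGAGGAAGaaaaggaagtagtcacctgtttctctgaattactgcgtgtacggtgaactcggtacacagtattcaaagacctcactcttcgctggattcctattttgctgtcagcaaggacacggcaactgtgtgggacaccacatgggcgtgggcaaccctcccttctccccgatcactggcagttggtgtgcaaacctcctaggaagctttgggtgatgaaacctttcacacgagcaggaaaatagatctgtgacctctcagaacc
Ltf, chr9:111019042-111019341, plus strand: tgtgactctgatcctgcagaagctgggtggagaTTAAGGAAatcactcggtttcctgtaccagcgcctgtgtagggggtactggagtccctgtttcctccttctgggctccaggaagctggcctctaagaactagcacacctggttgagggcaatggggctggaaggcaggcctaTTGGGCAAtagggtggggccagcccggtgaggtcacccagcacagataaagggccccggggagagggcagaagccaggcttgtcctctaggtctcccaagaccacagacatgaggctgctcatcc
Ngp, chr9:110419558-110419857, plus strand: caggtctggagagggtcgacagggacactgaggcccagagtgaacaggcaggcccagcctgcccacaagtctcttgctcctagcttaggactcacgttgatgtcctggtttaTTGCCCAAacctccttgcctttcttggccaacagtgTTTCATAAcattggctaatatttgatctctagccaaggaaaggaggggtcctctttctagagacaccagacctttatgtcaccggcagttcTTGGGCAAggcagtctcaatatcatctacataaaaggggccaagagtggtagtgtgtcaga

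GAGGAAG was found in 4 of 4 early promoters and in 2 of 6 later ones, Lcn2 and S100a8, against 13.6% of 32851 promoters of the same length. AACGG was in 2 of 4 early promoters, Elane and Prtn3, at a like distance from the start (50 and 55 bases before it), in 0 of 6 later ones and in 17.4% of all. TTNNGNAA was in 0 of 4 early promoters and in 5 of 6 later ones, all except Camp, and in 40.7% of all. These are exact matches of letters and were not tested as binding sites. Sites that differ from a motif by any fixed letter were not counted, so a promoter without a match may still hold a similar site. Prtn3 and Elane are neighbours on chromosome 10, with 3137 bases from the end of Prtn3 to the start of Elane, and S100a8 and S100a9 lie 22595 bases apart on chromosome 3. Ltf, Camp and Ngp are all on chromosome 9.

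The arrays were checked before the results. The probe set of Gsr, the deleted gene, ran from 138 to 257 units on the 16 Gsr-KO arrays and from 498 to 1541 units on the 16 Gsr-WT arrays, so the genotypes did not overlap. The summed signal of an array lay between 31172678 and 35272173 units and the median between 68.4 and 124.6. On Gsr-KO E19 replicate 1 the log2 ratio of 3' to 5' control probes was 4.27 and on Gsr-WT P56 hyperoxia replicate 2 it was 2.81, against -0.06 to 1.55 on the other arrays, and both had the lowest medians (68.4 and 76.2). Gsr-KO E19 replicate 1 was nearest to Gsr-WT P56 hyperoxia replicate 2 (r = 0.936 over genes, against 0.884 to its own group). Gsr-KO P5 air replicate 1 was nearest to a Gsr-KO E19 array (r = 0.976, against 0.961 to its own group). Gsr-KO E19 replicates 2 (r = 0.976, against 0.944) and 4 (r = 0.974, against 0.973) were in turn nearest to that P5 array. Some arrays of other groups were also nearest to another group. Gsr-WT E19 replicate 1 was nearest to that same P5 array (r = 0.974, against 0.937 to its own group), which matters below because it is the array on which the granule genes were low. Precision is limited by the small number of arrays per group.

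A probe set entered the test where 3 or more arrays exceeded the overall median intensity of 100.4 units, and 13345 genes were tested together with limma on log2(intensity + 26.3). "Passed" means an adjusted p under 0.05 over those genes, and every change is on that log2 scale, which understates the changes of dim genes. Ltf, Lcn2, S100a8 and S100a9 exceeded the median on 32 of 32 arrays, Ngp on 31, Camp on 28 and Mpo on 11. Prtn3 did so on 5 arrays, and Elane and Ctsg on 3. For these last 3 genes, Gsr-WT E19 replicates 2 to 4 were needed to enter the test, so a difference that involves Gsr-WT E19 was built into their selection and their counts describe it without supporting it.

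The early genes were high on 3 arrays, all of them Gsr-WT E19, reached lower levels in some Gsr-WT P5 lungs and were otherwise near or under the overall median. Mpo encodes myeloperoxidase, which makes hypochlorous acid from hydrogen peroxide. Its intensity was 94.4, 87.9, 152 and 116 in the 4 Gsr-KO E19 lungs, against 81.7, 3122, 808 and 3403 in the Gsr-WT E19 lungs. Replicates 2 to 4 of Gsr-WT lay far above every Gsr-KO lung, while replicate 1 lay below all 4 of them, so the groups overlapped. In air at P5 Mpo had 97.7, 63.2 and 60.8 in Gsr-KO, against 381, 273 and 116 in Gsr-WT, and after hyperoxia 42.5, 72.7 and 56.0 in Gsr-KO, against 125, 137 and 139.7 in Gsr-WT. Both P5 pairs were separate, with every Gsr-KO lung below every Gsr-WT lung, where 8.42% of all genes were in air and 8.62% after hyperoxia. By limma neither change of Mpo passed (adjusted p = 0.894 and 0.9999). At P56 all 12 lungs were under the median of all values, from 21.4 to 69.3.

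Prtn3 encodes proteinase 3, a serine protease that also trims cathelicidin. It read 51.3, 97.7, 77.6 and 94.8 in Gsr-KO E19 lungs, against 73.3, 1678, 497 and 1852 in Gsr-WT E19 lungs. Only Gsr-WT P5 air replicates 1 and 2 (202 and 109) were also above 100.4. Gsr-WT E19 replicates 2 to 4 were again far above the Gsr-KO lungs, with replicate 1 inside the Gsr-KO range, and the P5 pairs of Prtn3 overlapped in air and after hyperoxia. Elane, neutrophil elastase, had 8.62, 37.9, 44.6 and 19.6 in Gsr-KO E19 lungs, against 44.2, 619.8, 159 and 483 in Gsr-WT E19 lungs. Ctsg, cathepsin G, had 2.19, 39.0, 10.8 and 4.54 in Gsr-KO E19 lungs, against 12.8, 535, 125 and 702 in Gsr-WT E19 lungs. After birth neither of these 2 proteases exceeded 98.9 on any of the 24 arrays. For all 4 early genes the order of group means began with Gsr-WT E19 and then Gsr-WT P5 air. Each group in the order overlapped the next, the first places included, so no step of the order was a separation.

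**Figure D1:**
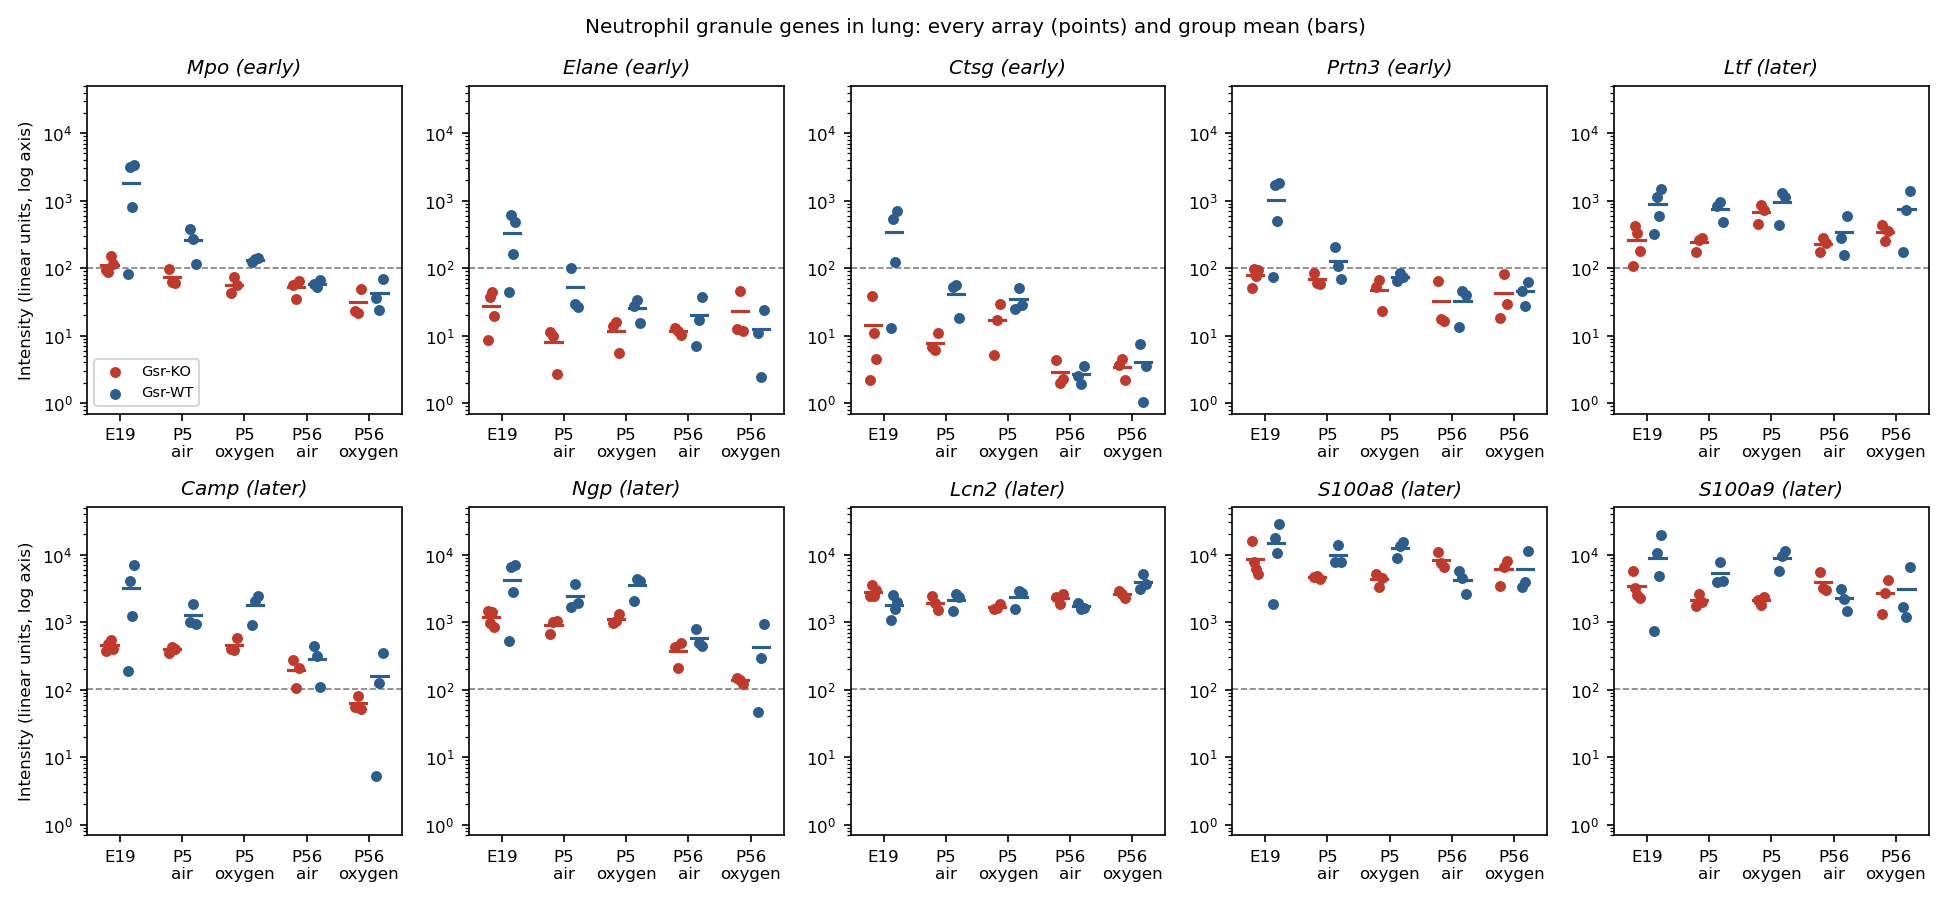
Intensity of each granule gene (linear units on a log axis) by age and exposure, with 1 point per array and a bar at the group mean. Gsr-KO points stand left of Gsr-WT points and the dashed line is the median of all values, 100.4. Elane and Ctsg are above that line on 3 of the 4 Gsr-WT E19 arrays and nowhere else, Prtn3 on 5 arrays and Mpo on 11, whereas the later genes are above it nearly throughout.

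The later genes exceeded the overall median in every E19 and P5 lung. Camp encodes the cathelicidin precursor and Ngp a cathelin-related neutrophil granule protein. Camp had 373, 479.9, 545 and 405 in Gsr-KO E19 lungs, against 191, 4125, 1246 and 7102 in Gsr-WT E19 lungs. Ngp had 1463, 978, 1411 and 854 in Gsr-KO E19 lungs, against 521, 6456, 2816 and 6974 in Gsr-WT E19 lungs. As with Mpo, Gsr-WT replicate 1 was below every Gsr-KO lung for both. At P5 the Gsr-WT lungs still had high readings of both genes. Camp had 354, 429 and 399.9 in Gsr-KO P5 air lungs, against 999, 1845 and 938 in Gsr-WT, and 394, 386 and 575 in Gsr-KO P5 hyperoxia lungs, against 911, 2024 and 2475 in Gsr-WT. Ngp had 673, 992 and 1039 in Gsr-KO P5 air lungs, against 1673, 3689 and 1908 in Gsr-WT, and 979.5, 1051 and 1301 in Gsr-KO P5 hyperoxia lungs, against 2048, 4371 and 4119 in Gsr-WT. For both genes no Gsr-KO lung reached a Gsr-WT lung at P5, in air or after hyperoxia. This was so for 8.42% and 8.62% of all genes, and neither gene passed in either pair. In the order of group means the 3 youngest Gsr-WT groups came first for Camp and Ngp, and the step from the third of these to the next group was one without overlap.

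The P56 lungs gave these genes lower readings. Camp had 274, 104 and 212 in Gsr-KO P56 air lungs, against 438, 310.1 and 109.6 in Gsr-WT, and 55.6, 81.1 and 51.3 in Gsr-KO P56 hyperoxia lungs, against 5.25, 127 and 344 in Gsr-WT. Ngp had 429, 207 and 485 in Gsr-KO P56 air lungs, against 801, 492 and 446 in Gsr-WT, and 149, 141 and 121 in Gsr-KO P56 hyperoxia lungs, against 45.9, 297 and 948 in Gsr-WT. Gsr-WT P56 hyperoxia replicate 1 was the lowest of the 32 arrays for both genes, and its group spanned the Gsr-KO values.

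S100a8 and S100a9 encode the subunits of calprotectin, a metal-binding protein of the neutrophil cytosol. S100a8 had 15878, 7770.2, 6217 and 5216 in Gsr-KO E19 lungs, against 1839, 17680.0, 10714 and 28802 in Gsr-WT E19 lungs. S100a9 had 5741, 3233, 2562 and 2312 in Gsr-KO E19 lungs, against 746, 10589, 4874 and 19346 in Gsr-WT E19 lungs. Gsr-WT E19 spanned a wider range than any other group for both, from the lowest to the highest of the 32 arrays. After hyperoxia at P5, S100a9 had 2133, 1806 and 2358 in Gsr-KO lungs, against 5742, 9464 and 11156 in Gsr-WT lungs. At P56 in air S100a8 lay the other way, with 11070.0, 7617 and 6552 in Gsr-KO lungs, against 5647, 4453 and 2617 in Gsr-WT lungs. In the order of group means of both genes the 3 youngest Gsr-WT groups came first, and each overlapped the next. The P56 air pair of S100a8 did not overlap, a property that 17.9% of all genes shared in the same direction, and the change of 1.02 (SE 0.62, adjusted p = 0.553) did not pass.

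Ltf encodes lactoferrin, an iron-binding protein of the secondary granules that epithelial cells also make. It had 107, 425, 327 and 178 in Gsr-KO E19 lungs, against 318, 1119.8, 587 and 1506 in Gsr-WT E19 lungs, and 176, 263 and 281 in Gsr-KO P5 air lungs, against 828, 942 and 484 in Gsr-WT P5 air lungs. Lcn2 encodes lipocalin 2, which binds bacterial siderophores and is made by airway epithelium as well as by neutrophils. It had 2402, 3555, 2419.6 and 2951 in Gsr-KO E19 lungs, against 1080.1, 2518, 1564 and 1955 in Gsr-WT E19 lungs. Lcn2 stood apart from the other later genes. Its order of group means began with Gsr-WT P56 hyperoxia and Gsr-KO E19, and each group overlapped the next. For Ltf the first 5 group means were those of Gsr-WT P5 hyperoxia, E19, P56 hyperoxia and P5 air and of Gsr-KO P5 hyperoxia, and the step from the last of these to the next group was without overlap. Over the 10 group means the correlation of Lcn2 with the mean profile of the later class, of which it is a member, was -0.25. It was 0.70 for Ltf, 0.79 for S100a8, 0.87 for S100a9, 0.94 for Ngp and 0.95 for Camp. The early genes had 0.79 (Mpo), 0.79 (Ctsg), 0.68 (Prtn3) and 0.61 (Elane) with that later profile. With the early profile Camp had 0.75, Ngp 0.70, S100a8 0.59, S100a9 0.59, Ltf 0.53 and Lcn2 -0.36. The classes therefore shared much of their pattern over the groups.

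Gsr-KO against Gsr-WT at E19 asked how the deletion bears on the lung before birth. 5 members fell and 1 rose. Mpo fell by 7.26-fold (-2.86, SE 0.61, adjusted p = 0.00206), and Ltf by 3.04-fold (-1.60, SE 0.51, adjusted p = 0.0327). Lcn2 rose by 1.63-fold (0.71, SE 0.23, adjusted p = 0.0392). Prtn3 changed by -2.61 (SE 0.55, adjusted p = 0.00214), Ctsg by -2.54 (SE 0.52, adjusted p = 0.00155) and Elane by -2.30 (SE 0.45, adjusted p = 0.00105). Since every Gsr-KO E19 array was under 100.4 for these 3 proteases, the changes with Gsr-KO set at 100.4 were -2.33 for Prtn3, -0.81 for Ctsg and -1.01 for Elane. Thus 6 of 10 members passed, where 15.2% of all genes did, 6.91% higher and 8.25% lower. Among the 7 members that did not need the Gsr-WT E19 arrays to enter the test, 3 passed.

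The other 4 later genes did not pass at E19. Camp had a change of -1.84 (SE 0.70, adjusted p = 0.0770) and Ngp one of -1.31 (SE 0.61, adjusted p = 0.144). S100a8 had a change of -0.33 (SE 0.53, adjusted p = 0.701) and S100a9 one of -0.69 (SE 0.62, adjusted p = 0.462). The median change was -2.57 for the 4 early genes, -0.999 for the 6 later genes and -0.05 over all genes tested. The mean change of the early genes minus that of the later genes was -1.73, where the same difference had a pooled SD of 0.53 between arrays of a group. Elane, Ctsg and Prtn3 needed Gsr-WT E19 arrays to enter the test, so this difference and the early median describe a contrast without supporting it. The E19 groups were separate for 0 of 10 members, where 4.47% of all genes were separate with Gsr-KO higher and 5.61% with Gsr-KO lower.

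These calls rested on the spread shared by all 10 groups and on which Gsr-WT arrays were used. In a fit restricted to the 8 arrays of E19, 0 of 10 members passed, with adjusted p between 0.167 and 0.853, and 40 genes passed in all. Without Gsr-WT E19 replicate 1, 8 members fell, Camp, Ngp and S100a9 among them, and Lcn2 no longer passed (0.495, adjusted p = 0.141). Leaving out this array, the one with low granule genes, raises the Gsr-WT level by itself, so the higher count adds no support. Ltf also failed to pass without Gsr-WT replicate 2 or 4 or Gsr-KO replicate 1 or 4, and Lcn2 without Gsr-WT replicate 3 or 4 or Gsr-KO replicate 2 or 4. Mpo and the 3 proteases passed without any 1 array, but the genes were not filtered again in these fits. Elane and Ctsg exceeded the overall median on 3 arrays, all Gsr-WT E19. Without replicate 2, 3 or 4 of that group these genes would not have entered the test. Prtn3 shared the selection named above, so these calls add no support for the 3 proteases. With the level of 18 liver genes as a covariate, 0 passed, and the change of Mpo was -0.11 (adjusted p = 0.913).

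RNA of other tissue differed between the same arrays. The mean log2 level of the 18 liver genes, with each gene centred over the 32 arrays, was -0.17, -1.64, 0.72 and 0.16 in Gsr-KO E19 lungs, against -0.55, 5.65, 4.59 and 5.82 in Gsr-WT E19 lungs. The same level of the 4 early granule genes was -0.51, 0.16, 0.09 and -0.16 in Gsr-KO, against -0.09, 3.91, 2.08 and 3.98 in Gsr-WT. The order of the 4 Gsr-WT arrays was therefore the same for both lists. In Gsr-KO the order differed, with replicate 2 lowest for the liver genes and highest for the early granule genes. The liver serum protein gene Ttr read 989, 63.9, 983 and 652 in Gsr-KO, against 228, 25900.0, 17521 and 28298 in Gsr-WT. All 18 liver genes and 15 of 18 erythroid genes fell in Gsr-KO, with median changes of -4.20 and -1.79. The erythroid level was -0.45 to -0.03 in Gsr-KO and -0.33 to 2.61 in Gsr-WT. The part of liver and erythroid RNA in the granule gene result was not tested beyond the liver covariate.

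**Figure D2:**
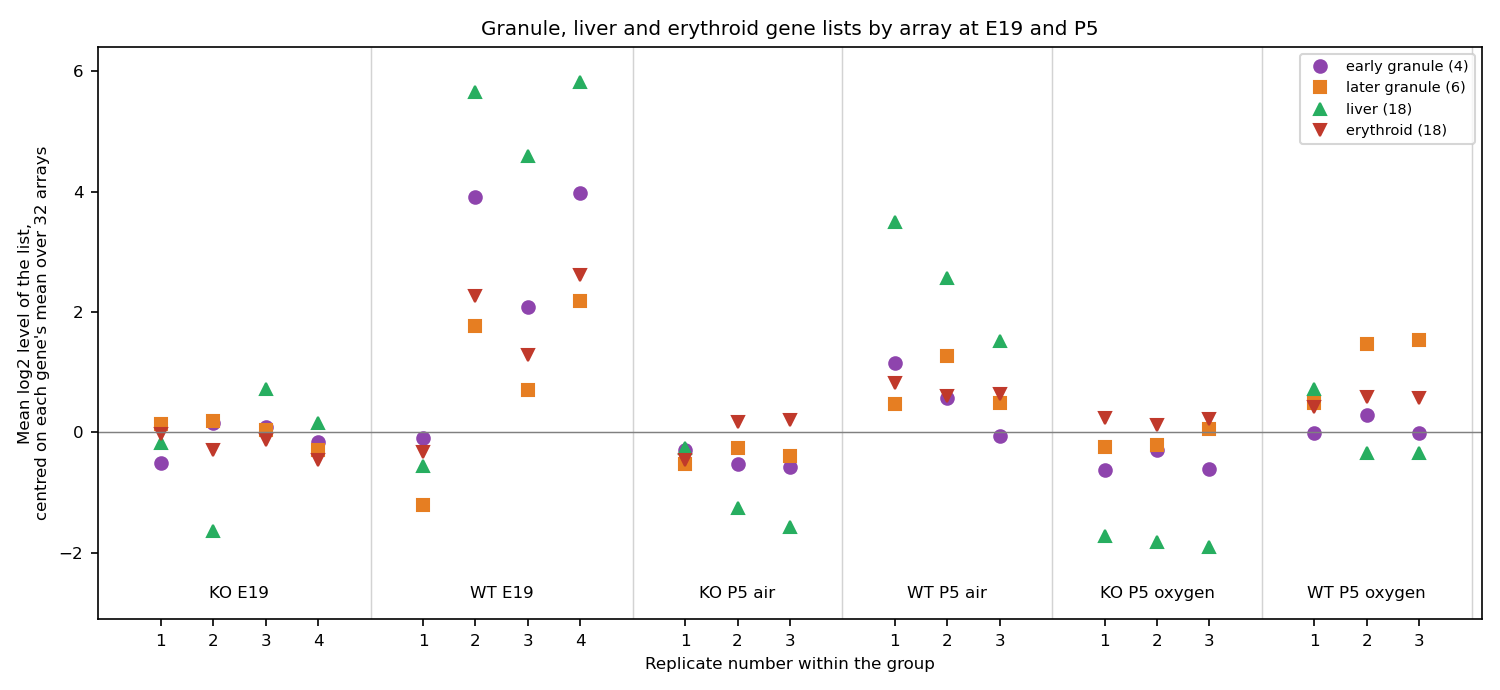
Mean log2 level of the 4 early granule, 6 later granule, 18 liver and 18 erythroid genes on each E19 and P5 array, centred on each gene's mean over 32 arrays, with replicate numbers on the x axis. On Gsr-WT E19 replicates 2 to 4 all 4 lists are high, with the early granule level between 2.08 and 3.98, and on Gsr-WT E19 replicate 1 all 4 are below 0.

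In the other neutrophil lists at E19 more genes rose than fell, where 6.91% of all genes passed higher and 8.25% lower. Lists of other cell types moved as well, with 8 of 11 alveolar type 2, 6 of 14 club and secretory epithelium and 4 of 8 mast cell genes higher and 17 of 18 mitosis genes lower in Gsr-KO, and their part was not tested. Of 10 further primary granule and promyelocyte genes 2 rose and 1 fell. Ms4a3, a membrane protein gene of granulocyte and monocyte progenitors, fell to 75.3 ± 16.3 in Gsr-KO, against 318 ± 231 in Gsr-WT (SD, n = 4 each), while the lysozyme genes Lyz1 (1.30) and Lyz2 (0.88), which lung macrophages and type 2 cells also express, rose on the log2 scale. Of 16 further secondary and tertiary granule genes 2 rose, Chil3 (1.82) and Lrg1 (0.88), and 0 fell. Of 16 surface and secreted genes of mature neutrophils 4 rose and 0 fell, with a median change of 0.36. The genes that rose were Slfn4 (1.86), the Fc receptor gene Fcgr4 (0.94), the integrin gene Itgb2 (0.92) and Clec4d (0.88). The mean level of this list overlapped, at -0.50 to 0.32 in Gsr-KO and -0.95 to -0.12 in Gsr-WT. Slfn4 averaged 1339 ± 943 in Gsr-KO, against 319 ± 168 in Gsr-WT (SD, n = 4 each). Chil3 averaged 2326 ± 1937, against 539 ± 250 (SD, n = 4 each). None of 8 granulocyte transcription factor genes passed. The progenitor factor genes Cebpe and Gfi1, as well as Ly6g and Retnlg of mature neutrophils, did not enter the test.

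P5 against E19 in air asked how the granule genes move across birth. In Gsr-WT the early genes fell and the later genes did not pass. Mpo averaged 257 ± 133 at P5 (SD, n = 3) and 1854 ± 1658 at E19 (SD, n = 4), a change of -1.94 (SE 0.65, adjusted p = 0.0456). Prtn3 changed by -2.16 (SE 0.60, adjusted p = 0.0158), Elane by -1.83 (SE 0.48, adjusted p = 0.0113) and Ctsg by -1.75 (SE 0.56, adjusted p = 0.0350). Since every Gsr-WT P5 air array was under 100.4 for Elane and Ctsg, their changes with P5 set at 100.4 were -1.01 and -0.81. The 6 later genes had changes of -0.46 to 0.29, with adjusted p of 0.491 or more. This made 4 of 4 early and 0 of 6 later members, where 14.6% of all genes passed, 8.34% higher and 6.24% lower. The early minus later difference in mean change was -1.80, a description under the same selection of Elane, Ctsg and Prtn3 by Gsr-WT E19 arrays.

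In Gsr-KO the same step gave 0 of 10 members by limma, where 3.43% of all genes passed, and 1 at an unadjusted p under 0.05, where 20.6% of all genes did. The early genes had changes of -0.61 to -0.16 and the later genes of -0.78 to 0.03, and the early minus later difference was 0.06, within the spread between arrays and of either sign under other settings. The genotype-by-age term, which tests whether the P5 minus E19 step differed, was 1.22 to 1.99 for the early genes and -0.83 to 0.29 for the later genes. Its largest value was that of Prtn3 (1.99, SE 0.85, adjusted p = 0.365). By limma 0 of 10 members passed it, where 0.187% of all genes did, and 2 had an unadjusted p under 0.05, where 11.6% of all genes did. A difference between the genotypes in this step was therefore not shown. Without Gsr-WT E19 replicate 1, 3 members passed. That array is the one with low granule genes, so leaving it out raises the Gsr-WT E19 level by itself and adds no support.

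The fall of the early genes in Gsr-WT used the same Gsr-WT E19 arrays as the genotype comparison. Within it, Elane, Ctsg and Prtn3 carried the selection named above, and with a filter of 8 arrays Mpo alone of the early genes was tested and passed. Without Gsr-WT E19 replicate 1 all 4 early genes still passed, without replicate 2 only 1 did and without replicate 4 none did. Without P5 air replicate 2 or 3 none passed, and without replicate 1 there were 2. In the 7 arrays alone 0 passed. Liver and erythroid genes also moved in this step, with 2 of 18 and 4 of 18 lower, and the liver level was 3.50, 2.57 and 1.51 on the Gsr-WT P5 air arrays. With the liver level as a covariate 3 early genes passed, and the change of Mpo was -1.04 (adjusted p = 0.0354).

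Of 16 genes of mature neutrophils 4 rose and 0 fell from E19 to P5 in Gsr-WT, where 8.34% of all genes passed higher and 6.24% lower. With them 5 of 9 lymphocyte and 4 of 8 mast cell genes rose, whose part was not tested. Those of mature neutrophils that rose were Fcgr4 (1.40), Itgb2 (1.39), Clec4d (1.14) and the receptor gene Trem1 (0.61). Of 9 neutrophil chemoattractant and growth factor genes 2 rose, Cxcl5 (2.87) and Cxcl12 (1.01). Of the primary granule and promyelocyte list Ms4a3 (-0.99) and the transcription factor gene Myb (-1.01) fell and Lyz1 (0.71) rose. Cebpd, a C/EBP family gene, fell by 1.28 on the log2 scale. Chil3, Hk3 and Cebpd fell in Gsr-KO across the same ages, with changes of -2.13, -0.83 and -0.98.

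**Figure D3:**
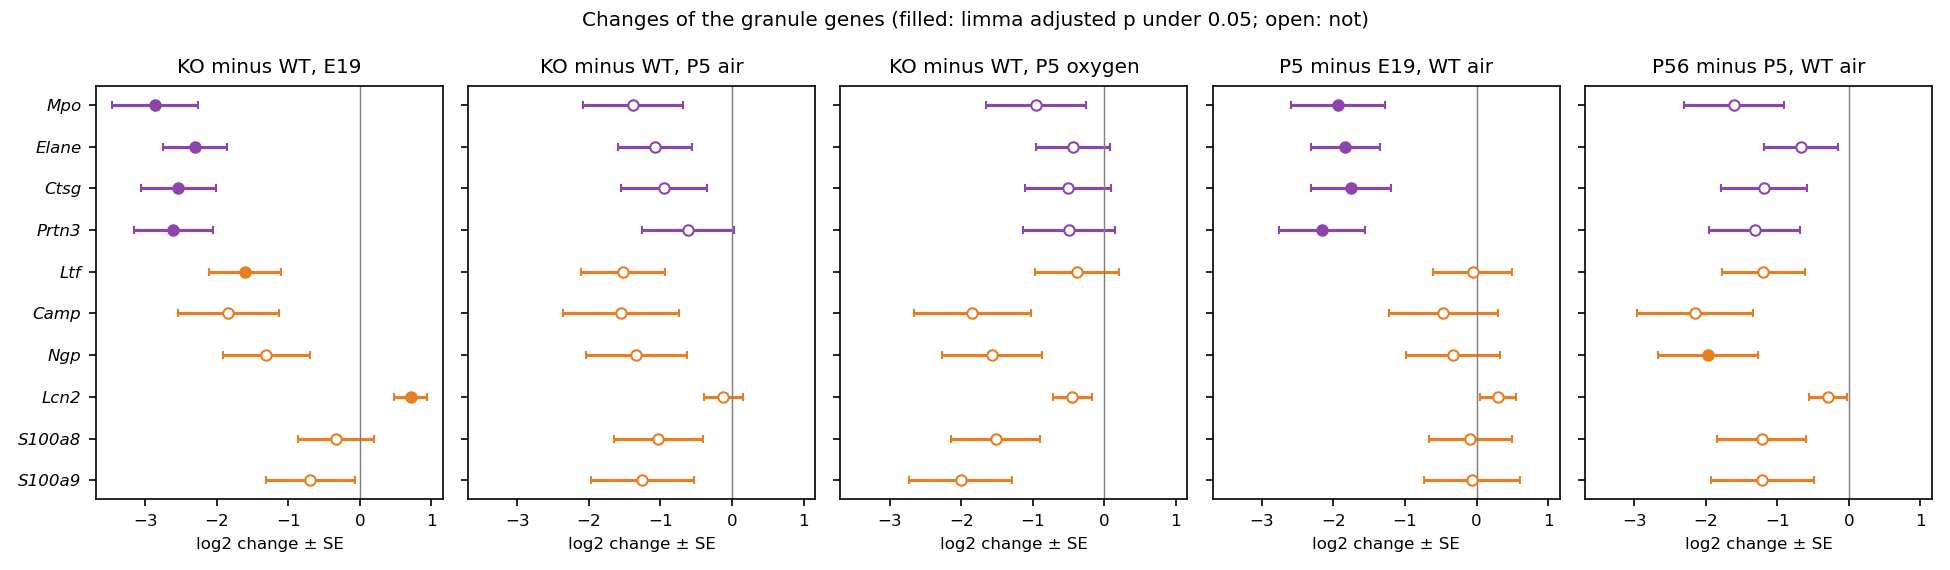
Log2 change with its standard error for the 10 members in 5 comparisons, early genes in purple above later genes in orange, filled where the adjusted p was under 0.05. In the E19 genotype panel and the Gsr-WT P5 minus E19 panel the 4 early genes are filled and left of 0, and in the P5 genotype panels no point is filled.

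P56 against P5 in air asked how the granule genes differ between neonatal and adult lung, and in Gsr-WT Ngp fell. Ngp averaged 580 ± 193 at P56 and 2424 ± 1103 at P5 (SD, n = 3 each), a fall of 3.92-fold (-1.97, SE 0.70, adjusted p = 0.0417). It was 1 of 10 members to pass, where 22.9% of all genes did. Camp had a change of -2.15 (SE 0.81, adjusted p = 0.0572) and Mpo one of -1.60 (SE 0.70, adjusted p = 0.102), and neither passed. In 7 of 10 members all P56 lungs lay below all P5 lungs, a property shared by 27.1% of all genes in that direction. The early minus later difference was 0.15, less than the spread between arrays of a group. With any 1 of the 6 arrays left out Ngp no longer passed (adjusted p 0.0521 to 0.169), whereas 8 members passed in a fit of the 6 arrays alone, where 42.1% of all genes did. The liver list fell in 13 of 18 and the erythroid list in 10 of 18 genes in this step, and with the liver level as a covariate the change of Ngp was -0.56 (adjusted p = 0.671).

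In Gsr-KO 0 of 10 members passed from P5 to P56 by limma, where 29.6% of all genes did, and 0 at an unadjusted p under 0.05, where 39.8% did. Camp had a change of -0.99, Ngp one of -1.27, and S100a8 and S100a9 of 0.83 each. Camp, Ngp and Ctsg were separate with P56 lower, where 25.8% of all genes were, and S100a8 and S100a9 were separate with P56 higher, where 27.3% were. In the other neutrophil lists more genes rose than fell. Of all 13345 genes 2033 rose and 1915 fell in Gsr-KO, and 1610 rose and 1442 fell in Gsr-WT. Of 16 further secondary and tertiary granule genes 9 rose and 2 fell in Gsr-KO, and 4 rose and 2 fell in Gsr-WT. Of 10 further primary granule and promyelocyte genes 6 rose in Gsr-KO and 3 in Gsr-WT, and 0 fell in either. In Gsr-KO 8 of 9 lymphocyte, 10 of 17 monocyte and macrophage, 12 of 14 club and secretory epithelium and 7 of 11 alveolar type 2 genes also rose, and 18 of 18 mitosis genes fell. The part of these lists was not tested.

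Gsr-KO against Gsr-WT at P5 in air gave a negative change in every member, none of which passed the test. By limma 0 of 10 members passed, where 0.015% of all genes did, and 2 had an unadjusted p under 0.05, where 5.55% did. Changes ran from -1.55 (Camp) to -0.12 (Lcn2), and the adjusted p were 0.766 or more. For 8 of 10 members, all except Prtn3 and Lcn2, the highest Gsr-KO lung was below the lowest Gsr-WT lung, where 8.42% of all genes were separate in that direction. The early minus later difference was 0.13, within the spread between arrays. The liver level was -0.26, -1.26 and -1.57 in Gsr-KO, against 3.50, 2.57 and 1.51 in Gsr-WT, and its part was not tested here. With it as a covariate 0 members passed, as in the main fit, so that count decides nothing. With array weights 6 members passed, all of them lower, where 10.7% of all genes passed.

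After hyperoxia at P5 the most negative changes were those of later genes. S100a9 had a change of -2.01 (SE 0.72, adjusted p = 0.940), Camp of -1.84 (SE 0.81, adjusted p = 0.9999), Ngp of -1.57 (SE 0.70, adjusted p = 0.9999) and S100a8 of -1.52 (SE 0.62, adjusted p = 0.9999). By limma 0 of 10 members passed, where 0.187% of all genes did, and 4 had an unadjusted p under 0.05, where 3.01% did. These 4 and Mpo were separate between genotypes with Gsr-KO lower, 5 of 10, where 8.62% of all genes were. The early genes had changes of -0.96 to -0.43, and the early minus later difference was 0.70, where its pooled SD between arrays was 0.53. 3 of the 4 early genes were under 100.4 on every array of both groups, and with an offset of 1 the difference was 0.24. Here the liver level was -1.90 to -1.72 in Gsr-KO and 0.72, -0.34 and -0.33 in Gsr-WT, and the mean level of 14 squamous epithelium genes was 1.58 ± 0.24 in Gsr-KO and -0.42 ± 0.09 in Gsr-WT (SD, n = 3 each). 4 of those 14 genes were higher in Gsr-KO, out of 23 genes in all that were, and their part was not tested. In the 6 arrays alone S100a8 and S100a9 passed (adjusted p = 0.0404 and 0.0120), and with array weights 6 members passed, all of them lower, where 0.322% and 13.2% of all genes passed in those fits. Of the 16 genes of mature neutrophils 0 passed, with a median change of -0.59, against 0.01 over all genes.

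**Figure D4:**
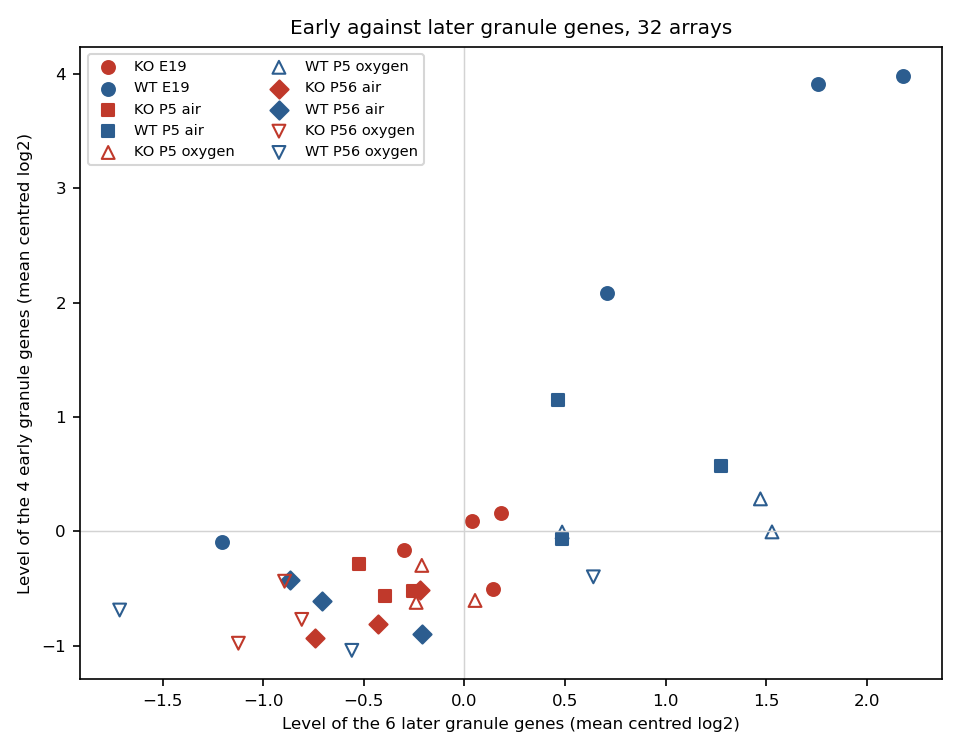
Each of the 32 arrays by its mean centred log2 level of the 6 later genes (x axis) and of the 4 early genes (y axis), Gsr-KO in red and Gsr-WT in blue, with marker shapes for age and exposure. Gsr-WT E19 replicates 2 to 4 lie at 2.08 to 3.98 on the early axis, and those 3 arrays lie at 0.71 to 2.18 on the later axis, and the Gsr-WT P5 hyperoxia arrays lie at 0.49 to 1.53 there with an early level of -0.01 to 0.28.

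Hyperoxia against air changed no member past the threshold. By limma 0 of 10 members passed in each of Gsr-KO P5, Gsr-WT P5, Gsr-KO P56 and Gsr-WT P56, where 0.337%, 0.00749%, 0% and 0% of all genes passed. At an unadjusted p under 0.05 there were 1, 0, 0 and 1 members, where 5.85%, 3.09%, 2.72% and 5.07% of all genes were under it. In Gsr-WT P56 lungs Lcn2 had 3068, 5175 and 3728 after hyperoxia, against 1931, 1559.6 and 1637 in air, a change of 1.18 (SE 0.27, adjusted p = 0.296). The groups did not overlap, as was so for 7.71% of all genes in that direction, and the highest value came from the array with the probe ratio of 2.81. In Gsr-KO P56 lungs Lcn2 had 2899.8, 2618 and 2245 after hyperoxia, against 2328, 1879 and 2583 in air. Camp (-1.26) and Ngp (-1.22) were separate in Gsr-KO P56 lungs with hyperoxia lower, and neither passed. The share of all genes separate in that direction is not given here. In Gsr-KO P5 lungs Ltf had 453, 852 and 720.1 after hyperoxia, against 176, 263 and 281 in air (1.38, SE 0.59, adjusted p = 0.738), and those lungs were separate too, where 7.19% of all genes were. On the same arrays the squamous epithelium level was 1.39 to 1.85 after hyperoxia, against -0.51 to -0.13 in air, with 6 of 14 of its genes higher out of 44 in all, and its part was not tested. In Gsr-WT P5 lungs the 6 later genes all had positive changes (0.14 to 0.75) and the 4 early genes all had negative ones (-0.70 to -0.13), none of them past the threshold. The genotype-by-oxygen terms gave 0 of 10 members by limma at P5 and 0 at P56, where 0.135% and 0% of all genes passed. At an unadjusted p under 0.05 they gave 0 and 1 (Lcn2, -0.99), where 2.32% and 2.47% of all genes were under it. Between Gsr-KO and Gsr-WT at P56 0 of 10 members passed by limma in air and 0 after hyperoxia, where 0.0599% and 0.03% of all genes passed. At an unadjusted p under 0.05 there were 0 and 1 (Lcn2, -0.59), where 11.9% and 8.7% of all genes were under it.

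The genes most like each class over the 10 group means were looked up among 2578 genes. The early profile was closest to Spp2 (r = 0.99), Slc10a1 (0.99), F10 (0.98), Agxt2 (0.98) and Uroc1 (0.98), genes that are known as liver-expressed and were not on the liver list. Spp2 averaged 58.9 in Gsr-KO E19 lungs, against 2253 in Gsr-WT E19 lungs. The later profile was closest to Car1 (0.93), Fgl1 (0.90), Rhag (0.89), Olfm4 (0.89) and Cldn13 (0.89), of which Car1 and Rhag are erythroid genes, Fgl1 a liver gene and Olfm4 a neutrophil granule gene. Olfm4 averaged 699 in Gsr-KO E19 lungs, against 1882 in Gsr-WT E19 lungs. These correlations over 10 means share the same arrays and are descriptions.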

How the data were processed

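Lung RNA of 32 mice was measured on Affymetrix mouse genome arrays, and arrays were grouped by the labels. The authors deposited linear intensity values for 45101 probe sets, for which the submitters' processing notes name MAS5 without a version. As read from the values, the trimmed mean (2% off each end) was 500.002 to 500.003 on every array, so no further scaling was done. No detection calls were used. Probe sets were named by the platform annotation: 34945 carry 1 symbol, 932 several and 9160 none, and 64 are controls.

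Intensity plus 26.3, the 25th percentile of all values, was taken to log2 in R 4.3.3, and probe sets above the median on at least 3 arrays were kept (27089). Of several kept probe sets, the one of highest mean log2 stood for its gene, leaving 13345 genes. All 32 arrays entered 1 limma 3.58.1 fit (10 group means, 22 residual degrees of freedom, trended eBayes, two-sided). P-values were adjusted by Benjamini-Hochberg across the genes tested, with a threshold of 0.05 and 16 comparisons. Comparisons that share a group share its arrays. Where all arrays of a group were under 100.4, that group was set to 100.4 to give a bound. The script was tested on simulated data. Figures were drawn with matplotlib 3.10.9.

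The members and the gene lists were chosen with earlier results of these data known. Named genes are the 10 members, of each other list up to 4 passing genes with the largest change in the E19 and the P5 against E19 comparisons, the 5 genes most like each class profile (SD of group means at least 0.5), and liver and erythroid markers. Same-numbered arrays of compared groups correlated above 0.1 in 10 of 40 pairs (range -0.41 to 0.27), so the arrays were treated as unpaired.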

Additional observations from a re-analysis of the deposited data

How the results depend on the processing

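Over the 2 E19 groups and 10 members, 0 of 20 groups of readings held a sample far from the others by Dixon's ratio. Each count below is of the 10 members. The fits with 1 array left out kept the genes of the main filter, so Elane and Ctsg stayed in them. For Gsr-KO against Gsr-WT at E19 the main count was 6. It was 3 with a filter of 8 arrays, where 7 members were tested, 0 in the compared groups alone and 0 with the liver level as a covariate, and 4 to 8 with 1 array left out. For P5 against E19 in Gsr-WT the main count was 4. It was 1 with the filter of 8 arrays, 1 with an offset of 1, 0 in the compared groups alone, 2 with the replicate block, and 0 to 4 with 1 array left out. For P56 against P5 in Gsr-WT the main count was 1. It was 0 without the filter, 2 with the offset at the median, 0 after centring on array medians, 8 in the compared groups alone, 9 with array weights, 2 with the replicate block, 0 with the liver covariate, and 0 with any 1 array left out. The main count was 0 in each of the other comparisons. It became 6 with array weights for the genotype at P5 in air and 6 after hyperoxia, and 2 in the compared groups alone after hyperoxia. It became 1 in the groups alone for the genotype at P56 in air, and, for P56 against P5 in Gsr-KO, 4 in the groups alone and 1 with weights. For hyperoxia against air, array weights gave 1 in Gsr-KO P5, 1 in Gsr-WT P5 and 3 in Gsr-WT P56. The genotype-by-age count was 0 to 3 with 1 array left out, the 3 without Gsr-WT E19 replicate 1.

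The early minus later difference at E19 was -2.42 with an offset of 1, -1.11 with the offset at the median and -1.15 with the liver covariate, against -1.73. With an offset of 1 it was -0.60 for the genotype at P5 in air and -0.77 for P56 against P5 in Gsr-WT, against 0.13 and 0.15. For P5 against E19 in Gsr-KO it was -0.24 with an offset of 1, -0.08 after quantile normalization and -0.27 without the 3 arrays named below, against 0.06, so these 3 have no settled sign. Centring on array medians moved the median change of all genes at E19 to 0.28, against -0.05, and Ltf then did not pass. For the 11 single-gene calls, 94 of the values under alternatives kept direction and call, 32 kept direction alone and 0 reversed, and with 1 array left out 49 kept both, 33 kept direction alone and 0 reversed. The replicate block changed the call of Mpo and Ctsg for P5 against E19 in Gsr-WT, and same-numbered arrays share only a number. The alternative without Gsr-KO E19 replicate 1, Gsr-KO P5 air replicate 1 and Gsr-WT P56 hyperoxia replicate 2 was chosen after seeing the data. It gave 5 members at E19, and it removes no array of the Gsr-WT comparisons in air. A second probe set per gene was not run, because each member has 1. The cause of these shifts was not tested, except that the stricter filter tests fewer members. Elane and Ctsg were mostly under the overall median, which limits their changes to bounds.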
